A study of Mus musculus with 4 samples.

Results

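The MAP kinase cascade kinases are the protein kinases of the MAPK, MAP2K, MAP3K and MAP4K tiers that carry numbered symbols of the form Mapk, Map2k, Map3k or Map4k. The rule that picked them read the symbol alone and no expression value, among features that the platform's probe annotation gives exactly 1 gene symbol. It was chosen with earlier results of these data known. The rule found 38 genes on 40 features, among 22180 genes with such a feature, and where a gene had several features the one with the highest mean over the arrays stood for it. Map2k7, Map4k2 and Map4k3 were not analysed here.

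Levels were measured on 4 Affymetrix whole-transcript arrays of macrophages grown from mouse bone marrow, a standard culture model of tissue phagocytes. The knockout cells (PP2ACαfl/fl;lyM-Cre, 2 arrays) carry floxed alleles of Ppp2ca, the gene of PP2ACα, a catalytic subunit of the serine/threonine phosphatase PP2A, with a myeloid Cre that removes exon 1, and the control cells (PP2ACαfl/fl, 2 arrays) carry the floxed alleles without Cre. The labels do not spell out lyM-Cre, read here as Cre inserted in the myeloid lysozyme gene Lyz2, and neither age nor sex is given in the labels. Cells of both genotypes grew for 6 days with L-cell supernatant, a source of macrophage growth factor, and then received 100 ng/ml of lipopolysaccharide (LPS), the Gram-negative cell wall component sensed by Toll-like receptor 4, for 2 hours. No unstimulated cells were part of the design, so the arrays compare 2 genotypes under LPS and say nothing of induction. Replicates are called biological without naming separate mice, so the p-values measure the spread between these arrays.

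MAP kinase pathways are relays in which a MAP4K or a small GTPase activates a MAP3K, the MAP3K phosphorylates a MAP2K, and the MAP2K phosphorylates both the threonine and the tyrosine of the activation loop of a MAPK. In macrophages LPS switches on the ERK, JNK and p38 branches through the MAP3Ks TAK1 and TPL2, and these branches shape cytokine transcription and mRNA stability. PP2A is known to remove phosphate from members of these relays. The arrays read mRNA, not phosphorylation or kinase activity.

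Over all features the array medians were between 3.5 and 3.57 log2 units, and pairs of arrays correlated at r = 0.986 to 0.99 across features. Values are robust multi-array average (RMA) log2 units, and a feature's level is not comparable with another feature's. Ppp2ca read 4.36 and 3.39 in the knockout arrays and 8.25 and 7.59 in the control arrays, and fell by 4.04 (SE 0.36, limma adjusted p = 0.0076). It missed the threshold without control replicate 1 (-3.71, limma adjusted p = 0.0503) and with all features as units (limma adjusted p = 0.075), and with the mean of its 3 features, which differed by -4.04, -2.24 and -0.12, the difference was -2.14 and passed. Ppp2cb, the gene of the beta catalytic subunit, did not pass (-0.04, limma adjusted p = 0.83). Of 9 measured macrophage markers all 9 passed the filter on low values and 1 rose, whereas 5 of 6 markers of T and NK cells, 3 of 4 of B cells, 5 of 8 of fibroblasts and stromal cells and 5 of 7 of mast cells, basophils and eosinophils lay below it, and none of the rest was called by limma. Of 7 monocyte markers 3 rose, namely Ly6c2, Ccr2 and Ms4a4c, and 1 fell, F13a1. Over all tested genes 3.3% rose and 3.49% fell. The mean level of the monocyte markers was 6.58 and 6.67 in the knockout arrays, against 6.11 and 6.17 in the control arrays. Of the tested markers of other cells, limma called 1 of 6 for neutrophils and precursors and 1 of 4 for dendritic cells lower. For erythroid and megakaryocytic cells it called 2 of 3 lower, Ppbp at -0.45 and Vwf at -0.88, and it called none of these markers higher. The mean level was 4.23 and 4.16 in the knockout arrays and 4.25 and 4.22 in the control arrays for neutrophils, 4.35 and 4.43 against 4.68 and 4.64 for dendritic cells, and 5.60 and 5.51 against 6.00 and 5.92 for erythroid and megakaryocytic cells. The called dendritic gene was Itgax, at -2.54, and of the 4 tested dendritic genes 2 had higher and 2 had lower means in knockout. The called neutrophil gene was Mmp8, at -0.84, and of the 6 tested neutrophil genes 4 had higher and 2 had lower means. In such bulk samples fewer cells of a type and less RNA per cell cannot be told apart. The part of these markers in the results below was not tested.

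No cascade kinase passed the test between the genotypes. The test was limma's moderated test on 12542 genes whose mean reached 3.53 log2 units, the median of all features, with a threshold of 0.05 on p-values adjusted by the Benjamini-Hochberg method over all those genes. Of the 31 kinases tested 0 were called, where 6.79% of all tested genes were. Their adjusted p-values ran from 0.065 for Mapk11 to 0.98 for Mapk14, and 5 lay under 0.1: those of Mapk11, Map2k1, Map2k2, Map3k14 and Map3k12. At an unadjusted p under 0.05 there were 12 kinases, 38.7% of those tested, 6 higher and 6 lower in knockout, beside 24.7% of all tested genes.

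Differences were small and ran both ways. They extended from -0.41 for Map2k2 to 0.46 for Map3k12, with 17 kinases higher and 14 lower and a median of 0.03 log2 units, beside a median of 0.01 over all tested genes. The median size of a difference, whatever its sign, was 0.18 among the kinases and 0.15 among all tested genes. The fold cutoff of 1.5 used by the authors, 0.585 on the log2 scale, was reached by 0 of the 38 kinases, beside 3.22% of all genes with a single-symbol feature, and by 0 of the 31 tested, beside 5.24% of all tested genes. The arrays of the genotypes did not overlap for 21 of the 31, or 67.7%, beside 55.3% of all tested genes.

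The intervals say how large a change these arrays leave room for. For 23 of the 31 kinases the 95% interval of the difference, taken gene by gene without adjustment, lay wholly inside a 1.5-fold change in either direction. For the other 8, namely Map2k1, Map2k2, Map2k6, Map3k5, Map3k6, Map3k12, Map3k15 and Mapk11, it reached past that size. The number called depended on the settings: 4 kinases (Map2k1, Map2k2, Map3k14 and Mapk11) passed among the 9534 genes left by a filter 1 log2 unit higher, where 14.2% of genes were called, and 2 (Map2k1 and Map2k2) passed with a robust variance trend, where 12.7% were. With the replicate number as a block none passed, where 2.49% of all tested genes were called. With any array left out, 1 genotype has a single array, so those fits are read here for differences only.

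**Figure D1:**
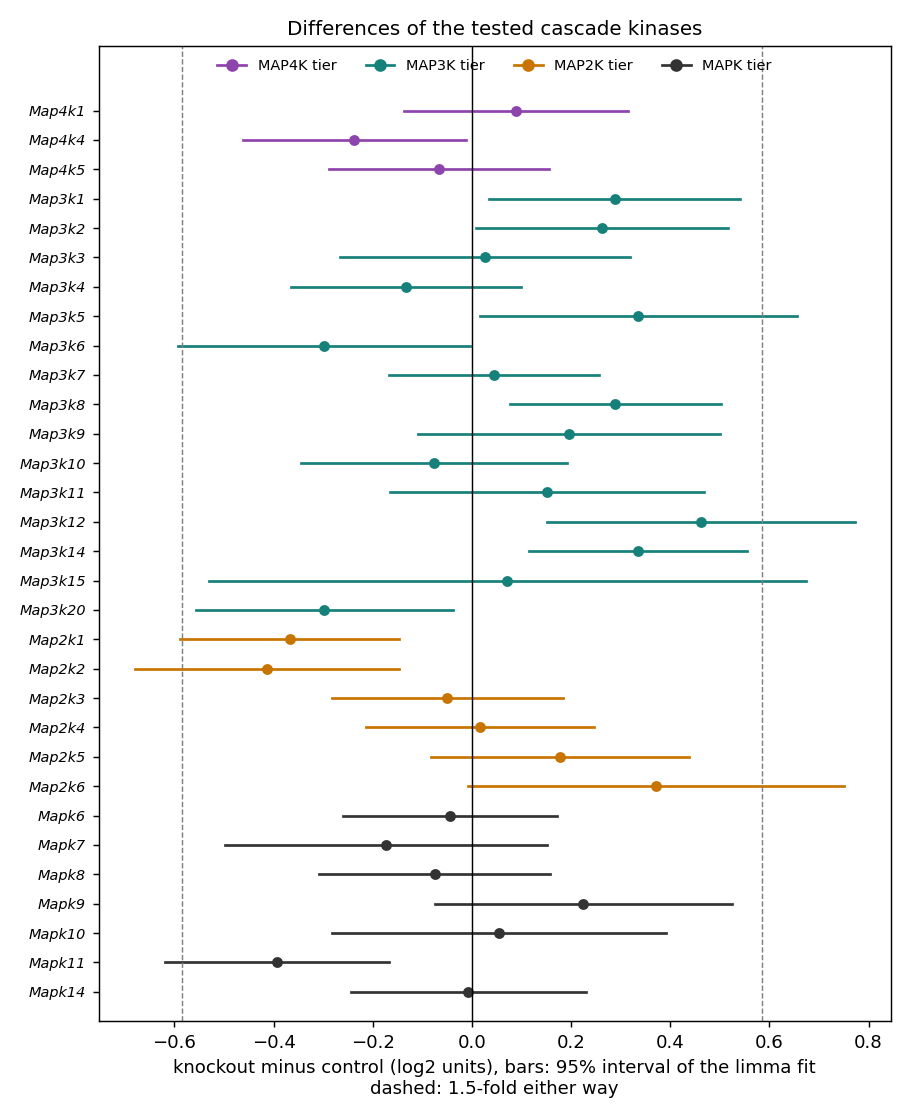
Knockout minus control difference of each of the 31 tested cascade kinases in log2 units, with bars for the 95% interval of the limma fit and dashed lines at 1.5-fold either way, ordered from the MAP4K tier at the top to the MAPK tier at the bottom. Every point lies between the dashed lines, from -0.41 for Map2k2 to 0.46 for Map3k12.

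At the top of the relay, the 3 MAP4K genes differed little. Map4k4, whose product feeds the JNK branch, read 8.59 and 8.69 in the knockout arrays and 8.90 and 8.85 in the control arrays. Both knockout arrays were below both control arrays, and the difference was -0.24 (SE 0.09, limma adjusted p = 0.18). Map4k5, a kinase linked to TNF receptor signalling to JNK, differed by -0.07, and Map4k1, known as HPK1 and as a brake on antigen receptor signalling, by 0.09.

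Of the 15 tested MAP3K genes, 11 were higher and 4 lower in knockout, beside 6436 higher among all 12542 tested genes. The MAP3K median was 0.15 log2 units, and none passed. With each array centred on its median, 10 of 15 were higher. At an unadjusted p under 0.05 there were 6 higher and 2 lower, beside 24.7% of all tested genes in either direction. TAK1 and TPL2 are the MAP3Ks closest to Toll-like receptor 4. Map3k7, the gene of TAK1, which activates both the IKK complex and MAP2Ks, read 8.01 and 8.04 in the knockout arrays and 7.99 and 7.98 in the control arrays. Its difference of 0.04 had a 95% interval from -0.17 to 0.26. Map3k8, the gene of TPL2, which is held inactive by the NF-kB precursor p105 and drives ERK activation after LPS, read 7.83 and 7.88 in the knockout arrays and 7.58 and 7.56 in the control arrays. The knockout arrays were higher without overlap, by 0.29 (SE 0.09, limma adjusted p = 0.11), with an interval from 0.08 to 0.50.

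Map3k14 encodes NIK, the kinase that starts the non-canonical NF-kB pathway. It read 6.59 and 6.50 in the knockout arrays and 6.22 and 6.21 in the control arrays, 0.33 higher in knockout (SE 0.09, limma adjusted p = 0.088). The spread within either genotype was smaller than the gap between them. Map3k12 encodes DLK, a JNK-activating kinase best known from injured neurons, and had the largest difference of the kinases, ranking 1184 by size among the 12542 tested genes. It read 5.98 and 6.03 in the knockout arrays and 5.69 and 5.39 in the control arrays, 0.46 higher (SE 0.12, limma adjusted p = 0.091). The control arrays were 0.30 apart, and without control replicate 1 the difference was 0.61, the lone value past 1.5-fold among the kinases in any of those settings.

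Map3k5 encodes ASK1, a sensor kinase of oxidative stress that feeds JNK and p38. It read 7.54 and 7.62 in the knockout arrays and 7.09 and 7.40 in the control arrays, and differed by 0.34 (SE 0.13, limma adjusted p = 0.18). Its relative Map3k6, the gene of ASK2, lay on the other side, at 5.37 and 5.65 in the knockout arrays and 5.82 and 5.79 in the control arrays, a difference of -0.30 (SE 0.12, limma adjusted p = 0.20). Map3k15, the gene of ASK3, differed by 0.07, with knockout arrays at 5.75 and 5.01 around control arrays at 5.23 and 5.38, and had the widest interval of the kinases, from -0.53 to 0.67. The 3 ASK genes thus had differences of both signs, and none passed.

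Among the MEKK genes, Map3k1 differed by 0.29 and Map3k2 by 0.26, both without overlap of the arrays, while Map3k3 differed by 0.03 and Map3k4 by -0.13. MEKK1 acts mainly on the JNK branch, and MEKK2 and MEKK3 can feed ERK5. Map3k4 has a further, dimmer feature, which differed by -0.35. Among the mixed-lineage kinase genes, activators of JNK, Map3k9 differed by 0.20, Map3k11 by 0.15 and Map3k10 by -0.08. Map3k20 encodes ZAK, the kinase that senses stalled ribosomes. It read 7.42 and 7.31 in the knockout arrays and 7.75 and 7.58 in the control arrays, a difference of -0.30 (SE 0.10, limma adjusted p = 0.16).

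In the MAP2K tier, both activators of ERK were lower on the knockout arrays, short of the threshold. Map2k1 and Map2k2 encode MEK1 and MEK2, the kinases of the ERK branch. Map2k1 read 8.83 and 8.81 in the knockout arrays and 9.14 and 9.23 in the control arrays, a difference of -0.37 (SE 0.09, limma adjusted p = 0.072). Map2k2 read 8.52 and 8.43 in the knockout arrays and 8.99 and 8.79 in the control arrays, a difference of -0.41 (SE 0.11, limma adjusted p = 0.084). For both genes the knockout arrays were lower without overlap, by 1.29-fold for Map2k1 and 1.33-fold for Map2k2, and neither passed. The interval ran from -0.59 to -0.15 for Map2k1 and from -0.68 to -0.15 for Map2k2.

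The other MAP2Ks did not pass either. Map2k6, the gene of MKK6, read 5.68 and 5.64 in the knockout arrays and 5.50 and 5.08 in the control arrays, 0.37 higher in knockout (SE 0.15, limma adjusted p = 0.21). The control arrays were 0.42 apart, so the gap between genotypes was of the size of the spread within controls. Map2k3, the gene of MKK3, read 9.56 and 9.44 in the knockout arrays and 9.51 and 9.58 in the control arrays, with overlap and a difference of -0.05. Map2k4, the gene of MKK4, which serves both JNK and p38, read 8.78 and 8.86 in the knockout arrays and 8.85 and 8.75 in the control arrays and differed by 0.02, with an interval from -0.21 to 0.25. Map2k5, the activator of ERK5, differed by 0.18 (limma adjusted p = 0.35).

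**Figure D2:**
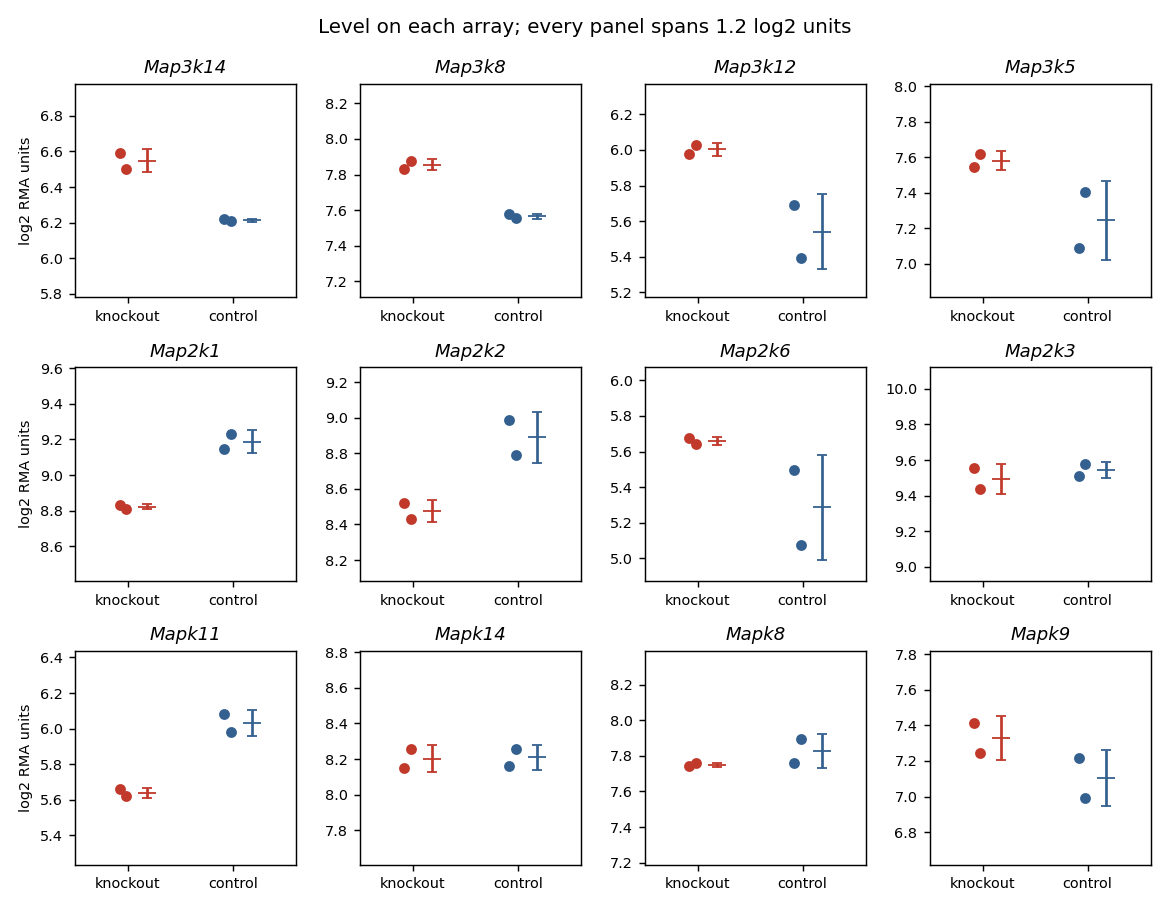
RMA level in log2 units of 12 cascade kinases on each array, knockout left and control right, with points for the arrays and bars for the mean and SD (n = 2 each); all panels span the same range of log2 units. Map2k1, Map2k2 and Mapk11 have both knockout arrays below both control arrays, Map3k14, Map3k8 and Map3k12 have both above, and Map2k3, Mapk14 and Mapk8 overlap.

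At the bottom of the relay, 7 of 11 MAPK genes were tested, 2 higher and 5 lower, with a median of -0.04. Among the p38 kinases, Mapk14, the gene of p38α, the main p38 of macrophages, read 8.15 and 8.26 in the knockout arrays and 8.16 and 8.26 in the control arrays. The arrays of the genotypes overlapped throughout, and the interval of its difference ran from -0.24 to 0.23. Mapk11, the gene of p38β, read 5.66 and 5.62 in the knockout arrays and 6.08 and 5.98 in the control arrays. Both knockout arrays were lower, by 0.39 on average (SE 0.09, limma adjusted p = 0.065), which was the smallest p among the kinases. In the RefSeq order of mouse genes Mapk11 lies directly beside Mapk12, the gene of p38γ, whose feature was below the filter at 2.97 and 3.07 in the knockout arrays and 2.89 and 3.08 in the control arrays. Mapk13, of p38δ, has 1 gene between it and Mapk14, and was also below the filter.

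The JNK genes did not pass either. Mapk8, the gene of JNK1, read 7.74 and 7.76 in the knockout arrays and 7.76 and 7.89 in the control arrays, a difference of -0.08 (SE 0.09, limma adjusted p = 0.67). Mapk9, the gene of JNK2, read 7.42 and 7.24 in the knockout arrays and 7.22 and 6.99 in the control arrays, a difference of 0.23 (SE 0.12, limma adjusted p = 0.31). Mapk10, the gene of the mainly neuronal JNK3, was near the filter, at 3.94 and 3.69 in the knockout arrays and 3.64 and 3.89 in the control arrays. Mapk6, the gene of the atypical kinase ERK3, differed by -0.04, with an interval from -0.26 to 0.17. Mapk7, the gene of ERK5, read 5.82 and 5.49 in the knockout arrays and 5.81 and 5.85 in the control arrays, with overlap, and differed by -0.17 (SE 0.13, limma adjusted p = 0.47). Its difference was -0.34 without knockout replicate 1 and -0.0094 without knockout replicate 2.

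The 7 kinases below the filter were Map3k13, Map3k19, Map3k21, Mapk4, Mapk12, Mapk13 and Mapk15. Their array values lay between 2.59 and 3.52 log2 units, where differences are understated, and none was tested. Their differences ran from -0.28 for Mapk13 to 0.18 for Mapk4. None of the 7 passed when tested with no filter, where 0 of all 38 kinases did by limma, beside 1.5% of all genes. Of the 38 kinases 9 had an unadjusted p under 0.05. The share of all genes at that p was not counted with no filter.

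Promoter sequences are shown for the MEK pair, whose differences were alike, and for the TAK1 and p38α genes, whose promoters hold letters of factors that LPS and interferon activate. The RefSeq promoter table, on mouse build GRCm38.p6, had windows for 31 of the 38 kinases, each with 250 bases before and 50 after a transcript start. Capitals mark matches on either strand to the NF-kB letters GGGANTTTC, the interferon-stimulated response element letters GAAANNGAA, the AP-1 letters TGANTCA or the CRE letters TGACGTCA. The windows are at chr9:64253556-64253855, minus strand for Map2k1, chr10:81105665-81105964, plus strand for Map2k2, chr4:31963857-31964156, plus strand for Map3k7 and chr17:28692318-28692617, plus strand for a start of Mapk14.
Map2k1: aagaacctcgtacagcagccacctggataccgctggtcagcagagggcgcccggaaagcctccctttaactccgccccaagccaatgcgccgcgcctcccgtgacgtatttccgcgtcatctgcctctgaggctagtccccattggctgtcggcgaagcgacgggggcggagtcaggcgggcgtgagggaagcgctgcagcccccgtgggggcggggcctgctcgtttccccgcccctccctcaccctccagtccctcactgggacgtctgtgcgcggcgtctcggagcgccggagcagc
Map2k2: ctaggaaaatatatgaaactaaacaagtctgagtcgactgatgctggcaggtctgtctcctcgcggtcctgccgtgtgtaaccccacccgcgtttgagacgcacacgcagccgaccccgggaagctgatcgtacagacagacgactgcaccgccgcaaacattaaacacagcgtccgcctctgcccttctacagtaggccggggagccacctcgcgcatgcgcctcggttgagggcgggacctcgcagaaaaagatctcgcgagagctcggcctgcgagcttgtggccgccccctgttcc
Map3k7: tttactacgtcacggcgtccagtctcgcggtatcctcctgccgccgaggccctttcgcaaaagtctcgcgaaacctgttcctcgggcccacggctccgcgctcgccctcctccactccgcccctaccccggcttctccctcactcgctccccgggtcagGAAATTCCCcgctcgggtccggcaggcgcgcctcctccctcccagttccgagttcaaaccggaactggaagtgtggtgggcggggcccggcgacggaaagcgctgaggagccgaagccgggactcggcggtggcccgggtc
Mapk14: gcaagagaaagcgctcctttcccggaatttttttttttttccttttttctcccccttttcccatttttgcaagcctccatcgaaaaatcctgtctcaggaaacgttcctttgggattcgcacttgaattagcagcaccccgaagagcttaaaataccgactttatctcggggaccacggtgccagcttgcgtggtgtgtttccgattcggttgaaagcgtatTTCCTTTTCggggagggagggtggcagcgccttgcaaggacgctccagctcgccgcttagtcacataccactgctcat
The Map2k1 and Map2k2 windows held no match to any of these letters, and had 69% and 60.7% G and C, beside a median of 52.7% over all windows. The NF-kB letters were in 1 of the 42 windows of the kinases, that of Map3k7, beside 1.11% of all 32851 windows in the table. The interferon element letters were in 2 of 42, of Mapk14 and Mapk10, beside 8.56% of all windows, the AP-1 letters in 2, of Map2k6 and Map3k10, beside 7.81%, and the CRE letters in 1, of Mapk10, beside 1.79%. No marked match overlapped another in the printed windows. Map3k7 and Mapk14, which carry the matches shown, differed by 0.04 and -0.01.

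The other genes of the pathway, taken from 6 lists, were read off the same fit. Of 106 tested genes 4 rose and 10 fell, 13.2% in all, beside 3.3% of all tested genes that rose and 3.49% that fell, and their median difference was 0.02. Of 14 cascade kinases with other names, 1 fell and none rose. That was Mink1, a Ste20-type kinase also counted as a MAP4K, at 6.89 and 6.76 in the knockout arrays and 7.39 and 7.38 in the control arrays. The knockout arrays were lower by 0.56 on average (SE 0.09, limma adjusted p = 0.033). The germ cell kinase gene Mak, at 0.44, and Stk25, at -0.22, did not pass, nor did the RAF genes Braf at -0.06 and Araf at 0.18.

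Among 18 tested genes of Ras and Rac GTPases and their regulators, 3 fell and 1 rose. Rasgrp3, which loads Ras and Rap with GTP, read 9.19 and 9.26 in the knockout arrays and 10.10 and 9.95 in the control arrays, a difference of -0.80 (SE 0.10, limma adjusted p = 0.016). Rasgrp4, an exchange factor of myeloid and mast cells, read 7.03 and 7.12 in the knockout arrays and 6.49 and 6.48 in the control arrays, a difference of 0.59 (SE 0.09, limma adjusted p = 0.025). Its other, dim feature differed by -0.25, and with the mean of both features the gene did not pass (0.17, limma adjusted p = 0.30). The Ras relative Rras2 fell by 0.49 and the Ras GTPase activator Rasa1 by 0.45, whereas Vav3, at 0.21, and Rac2, at -0.19, did not pass.

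Of 22 tested scaffold and adaptor genes, Peli1, a ubiquitin ligase of Toll-like receptor signalling, rose by 0.76 and Ksr2, a scaffold of the RAF and MEK kinases, fell by 0.70. Ksr2 was dim, at 3.39 and 3.36 in the knockout arrays, below the filter level, against 4.01 and 4.15 in the control arrays. Arrb2, at 0.33, and Traf2, at 0.25, did not pass, and the TAK1-binding genes Tab1, Tab2 and Tab3 differed by 0.05, 0.20 and 0.19 without passing. None of the 7 tested genes of kinases that MAPKs activate was called by limma. At an unadjusted p under 0.05 there was 1, beside 24.7% of all tested genes. Mapkapk3 differed by 0.32 and Rps6ka3 by -0.24, and Mapkapk2, the kinase through which p38α stabilises cytokine mRNAs, by -0.004. None of the 18 nuclear targets was called by limma, with 7 at an unadjusted p under 0.05, beside 24.7% of all tested genes. Elk3, at 0.38, and Mef2d, at 0.33, had the largest differences among the nuclear targets.

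Of 27 tested genes known for induction through MAPKs, 5 fell and 2 rose, with a median of -0.13. Hbegf, a ligand of the EGF receptor, fell by 1.38, Csf2, the gene of GM-CSF, by 1.23 and Spry1, a feedback inhibitor of Ras signalling, by 1.07. With the mean of its features Csf2 differed by -0.60 (limma adjusted p = 0.033). The transcription factor genes Fosb and Egr3 rose by 0.74 and 0.67, and Ier3 at -0.59 and Egr1 at 0.51 did not pass. Dusp2, a MAPK phosphatase, and Etv5 were the other genes that fell. With the replicate block 5 genes of the 6 lists were called, where 2.49% of all tested genes were. With no filter 6 were called, where 1.5% of all genes were. Rasgrp4, Rras2, Rasa1, Mink1, Csf2, Egr3, Dusp2 and Etv5 lost their calls both with no filter and with the block, and Ksr2 with the block.

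**Figure D3:**
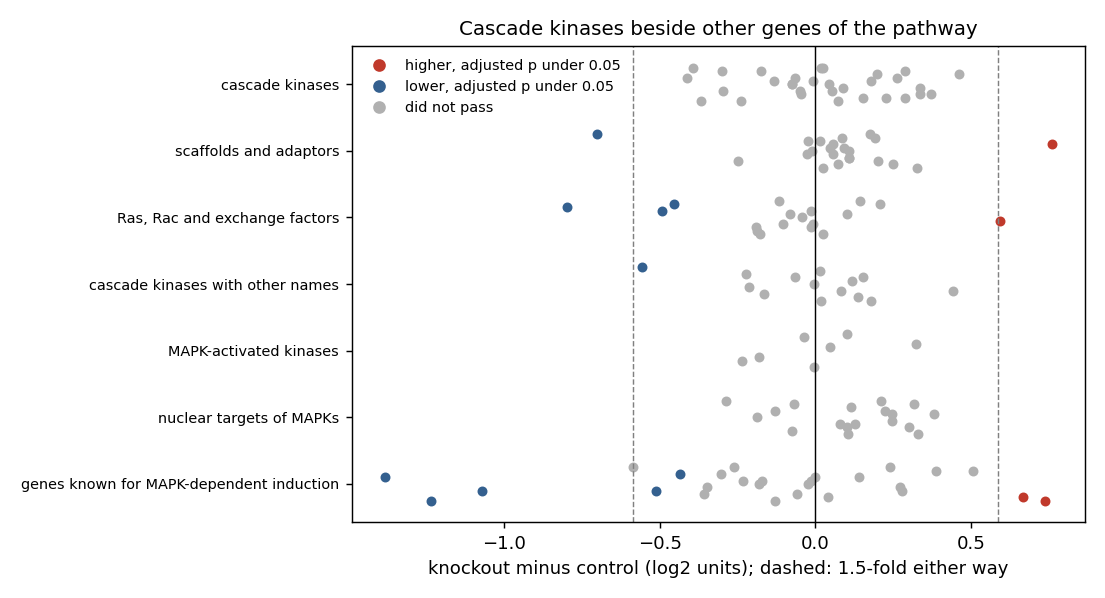
Knockout minus control difference in log2 units of every tested gene of the cascade kinases and of 6 lists of other pathway genes, red where higher and blue where lower at a limma adjusted p under 0.05, with dashed lines at 1.5-fold either way. The cascade kinases hold no coloured point, while genes known for MAPK-dependent induction reach from -1.38 for Hbegf to 0.74 for Fosb.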

How the data were processed

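The deposited table holds log2 values of 41345 features on 4 arrays, which the authors made with RMA (background adjustment, normalization between arrays and a log2 transformation), per the series' design text; RMA and oligo are the tools listed in the submitters' processing notes, with no version. After normalization a change in RNA content per cell is not visible. All 4 columns were matched to samples by accession. The annotation gave 23521 features exactly 1 symbol and 1814 several, and 16010 had no row. The array number limits the precision.

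Knockout was compared with control in limma 3.58.1 (R 4.3.3), lmFit and eBayes, two-sided, with 2 residual and 3.51 prior degrees of freedom and a median residual SD of 0.0995 log2 units. No block was used, since the labels do not say that a replicate number pairs samples. Same-numbered replicates did not deviate together (r = -0.0357). The script was tested on simulated data, where no recovery of 1.5-fold changes was required for it to pass. The share of such changes recovered is not reported here. The kinases, gene lists, alternatives and naming rule were chosen with earlier results of these data known. The rule named Ppp2ca, Ppp2cb, every kinase, and per list up to 5 called genes and the 2 largest differences among the others; Braf, Araf, Tab1, Tab2, Tab3, Mapkapk2, Dusp2 and Etv5 were added after their values were seen. Symbols came from the platform annotation, and no build is given for it. Alternatives covered the filter, normalization, features, variance model, replicate block and each array left out.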

Additional observations from a re-analysis of the deposited data

How the results depend on the processing

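The count of called kinases, 0 as reported, was 4 with the stricter filter and 2 with a robust intensity trend, and 0 with the other 10 alternatives by limma, with 6 to 13 kinases at an unadjusted p under 0.05 in those 10. Shares of all genes at that unadjusted p were not counted for the alternatives. The count of kinases past 1.5-fold was 0 to 1 over the fits without 1 array. Over all tested genes the 852 calls became 333 with no filter, 1354 with the stricter filter, 15 with all features as units, 1590 with the robust trend, 312 with the replicate block and 96 to 174 without 1 array. The 14 calls among other pathway genes became 6, 0, 26 and 5 with no filter, all features, the robust trend and the replicate block, and 1 to 2 without 1 array. No call was made on a kinase with the replicate block. Signs turned in 14 of 371 comparisons of kinases. With median centring Map2k4 was at -0.025 and Map3k3 at -0.016. Without 1 array, Map2k3 ran from -0.11 to 0.011, Map2k4 from -0.033 to 0.067, Map3k3 from -0.11 to 0.16, Map3k10 from -0.16 to 0.011, Map3k11 from -0.0056 to 0.31, Map3k15 from -0.30 to 0.44, Mapk10 from -0.071 to 0.18 and Mapk14 from -0.061 to 0.047. The cause of these moves was not tested. Probes below 3.53 log2 units limit what can be said of 7 kinases.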
